A study of Mus musculus with 20 samples.

Results

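The 10 genes described here mark the excitatory neurons of the deep cortex in layer 5, layer 6 and the subplate. They are Tbr1, Fezf2, Otx1, Tle4, Ntsr1, Nxph4, Cplx3, Etv1, Bcl11b and Foxp2, 10 of the 23413 genes in the count tables, and all 10 were among the 15660 genes with enough counts to be tested. The rule that chose them is where they are known to be expressed, and it was set with earlier results of these data known. Total RNA was sequenced from the cortex of 20 knock-in mice with human APOE4 in place of mouse Apoe (Apoe tm1.1(APOE*4)Adiuj), at 22 months of age, with the diets given over the last 12 months, from 10 months of age. There were 5 females and 5 males on the control diet (CD, written SD in the sample labels) and 4 females and 6 males on the ketogenic diet (KD), with 1 library per mouse. All mice, CD and KD alike, carried the APOE4 allele, were housed singly, were fed the same calories and were fasted for about 12 h before killing, so no group shows these genes without APOE4 or in young mice.

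Excitatory neurons of the deep layers send the output of the cortex. Those of layer 5 project to the brainstem, spinal cord and striatum, those of layer 6 mostly to the thalamus, and subplate cells persist in the adult as a thin layer above the white matter. A small set of transcription factors sets these identities during development and stays on in the adult. Tbr1, a T-box factor, promotes the layer 6 corticothalamic identity, and Fezf2, a zinc-finger factor, promotes the layer 5 subcerebral identity, in which Bcl11b, also called Ctip2, acts downstream of it. Otx1 is a homeobox factor of layers 5 and 6, and Etv1 is an ETS-family factor of layer 5. Tle4 is a Groucho-family corepressor and Foxp2 a forkhead factor, both of layer 6. Ntsr1 is a neurotensin receptor of layer 6 corticothalamic cells, Nxph4 is a secreted neurexophilin, and Cplx3 is a complexin of the synaptic release machinery, the last pair being used as subplate markers. Bcl11b and Foxp2 are also strongly expressed in the projection neurons of the striatum, which lies directly beneath the cortex.

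In the GENCODE annotation of GRCm38, the mm10 assembly to which the reads were aligned, Tbr1 lies at chr2:61802930-61814114 and Fezf2 at chr14:12342094-12348189. Otx1 lies at chr11:21994764-22002897, Tle4 at chr19:14448150-14598051 and Ntsr1 at chr2:180499976-180544980. Nxph4 is at chr10:127525473-127534559, Cplx3 at chr9:57599992-57606281 and Etv1 at chr12:38779380-38870484. Bcl11b is at chr12:107910403-108003602 and Foxp2 at chr6:14901349-15441977. Tbr1, Ntsr1, Foxp2 and Etv1 are on the plus strand and the other 6 on the minus strand. The members share no locus with each other, and the only annotated gene that overlaps one of them is the microRNA gene Gm25470 within Foxp2, which is not among the counted genes.

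Promoter sequence from RefSeq (GRCm38.p6), from 250 bases before to 50 bases after each annotated start, was found for 7 of the 10 members in 9 windows. Tbr1, Fezf2, Etv1 and Bcl11b are shown, the first 3 because their levels were low in the same KD female libraries and Bcl11b because its level was high there. Each is printed 5′ to 3′ on the strand of the gene, and capitals mark a match to one of 5 short motifs.
Tbr1 (plus strand, chr2:61804203-61804502): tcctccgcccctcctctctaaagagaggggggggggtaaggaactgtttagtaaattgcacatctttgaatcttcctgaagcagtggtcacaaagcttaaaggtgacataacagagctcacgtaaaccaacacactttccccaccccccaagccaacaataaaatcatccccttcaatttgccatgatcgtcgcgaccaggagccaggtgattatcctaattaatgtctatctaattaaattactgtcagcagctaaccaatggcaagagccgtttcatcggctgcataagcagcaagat
Fezf2 (minus strand, chr14:12345816-12346115): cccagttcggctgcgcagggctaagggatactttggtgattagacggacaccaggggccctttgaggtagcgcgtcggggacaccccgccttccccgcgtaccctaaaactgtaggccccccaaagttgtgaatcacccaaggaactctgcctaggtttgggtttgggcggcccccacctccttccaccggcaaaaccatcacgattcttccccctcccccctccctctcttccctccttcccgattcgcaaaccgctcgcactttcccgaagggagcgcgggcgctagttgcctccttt
Etv1 (plus strand, chr12:38783461-38783760, the second of its 2 windows): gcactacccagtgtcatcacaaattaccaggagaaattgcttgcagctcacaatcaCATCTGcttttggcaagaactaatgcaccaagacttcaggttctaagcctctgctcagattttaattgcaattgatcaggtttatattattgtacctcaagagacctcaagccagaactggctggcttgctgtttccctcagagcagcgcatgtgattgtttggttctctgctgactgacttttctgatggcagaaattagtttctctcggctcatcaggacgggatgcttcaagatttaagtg
Bcl11b (minus strand, chr12:108003365-108003664): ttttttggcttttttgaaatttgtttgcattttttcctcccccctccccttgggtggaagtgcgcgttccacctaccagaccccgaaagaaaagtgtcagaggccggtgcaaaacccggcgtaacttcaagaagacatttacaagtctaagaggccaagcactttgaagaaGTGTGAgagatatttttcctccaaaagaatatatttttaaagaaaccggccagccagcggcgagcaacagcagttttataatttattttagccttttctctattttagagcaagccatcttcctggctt
The motifs were searched on both strands as exact letters. They were a T-box site (TCACAC, found in 14.5% of all 32851 RefSeq windows), an OTX homeobox site (TAATCC, 7.06%), a forkhead site (GTAAACA, 3.65%), an ETS site (CCGGAAG, 8.86%) and a neuronal E-box (CAGATG, 17.2%). No motif contains another. Of the 9 windows, 1 held the T-box letters, in Bcl11b, on the strand opposite to the printed one. The first base of this match as printed was at -79 from the start. The E-box was held by 1 window, that of Etv1 printed above, also on the opposite strand, at -194. No window of a member held the other 3 motifs. The Fezf2 window had 20 CpG pairs, the Bcl11b window 9, the Tbr1 window 7 and this Etv1 window 3, beside a median of 7 over all windows.

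Library totals ran from 12207161 to 29109990 counts, and the library numbers in the labels form 2 series of 10 libraries, with deeper libraries in the first (21015275 to 29109990) than in the second (12207161 to 17697342). Each group has libraries in both series. Every pair of libraries within a group differed by more than sampling noise, with a chi-square per degree of freedom of 6.90 to 109 over 41 pairs. Slc17a7, the vesicular glutamate transporter of cortical excitatory cells, lay between 150 and 607 CPM, which are counts scaled to the library total, and Snap25, a marker of all neurons, was at 2647 to 5911 CPM. The CD female library E228 held the Y-linked gene Ddx3y at 14.0 CPM, against 164 to 241 CPM in males and at most 1.64 CPM in the other females.

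Some libraries stood apart from their groups before any member was considered. The summed level of 20 striatal projection neuron genes was 3437 to 5610 CPM in 4 libraries, the KD females E68, E61 and E207 and the KD male E59, and 453 to 1704 CPM in the other 16. The highest of those 16 was the CD female E249, at 1704 CPM, and the next was the CD male E58, at 1171 CPM. The summed level of 9 cortical excitatory genes other than Tbr1 was 1374 to 1503 CPM in KD females E68, E61 and E207 and 1584 CPM in CD female E249. It was 2996 CPM in the remaining KD female, E227, 3164 to 3289 CPM in the remaining CD females, and 2522 CPM in E59. Drd1 (Drd1a in the tables), a dopamine receptor that defines one class of striatal projection neuron, ran from 15.5 to 326 CPM and was at 0 in no library. Ttr, a defining gene of the choroid plexus, was at 2187 CPM in E59 and at most 41.2 CPM in the other 19 libraries. KD male E64 had a summed level of hippocampal neuron genes of 148 CPM, against 35.8 to 54.3 CPM in the other 19 libraries. All values are for bulk tissue, in which fewer cells of a type and less RNA per cell cannot be told apart.

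Levels were compared between members per exon length, as CPM divided by the length of annotated exon in kilobases (RPKM). Tle4 was the most abundant member, with a median of 16.6 RPKM over the 20 libraries and a range of 14.0 to 23.4. Tbr1 followed at 13.1 RPKM, Bcl11b at 10.7 and Etv1 at 6.57. Fezf2 (3.67 RPKM), Cplx3 (3.14) and Foxp2 (1.92) were at intermediate levels. Ntsr1 was low at 0.825 RPKM, and Nxph4 (0.231) and Otx1 (0.221) had the lowest levels. Per exon length, some genes exceeded their lower neighbour in 19 libraries, as Bcl11b did over Etv1. Such an order also rests on the exon lengths used, 8111 bases for Bcl11b and 13296 for Etv1. In CPM, without that division, Bcl11b was above Etv1 in E61 (193 against 48.5) and below it in E265 (63.3 against 147). The order per exon length was not firm between Fezf2 and Cplx3, where Fezf2 was higher in 11 of 20 libraries. Nor was it firm between Nxph4 and Otx1, where Nxph4 was higher in 12. Tle4 was the highest member in 11 libraries, Bcl11b in 5 and Tbr1 in 4.

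**Figure D1:**
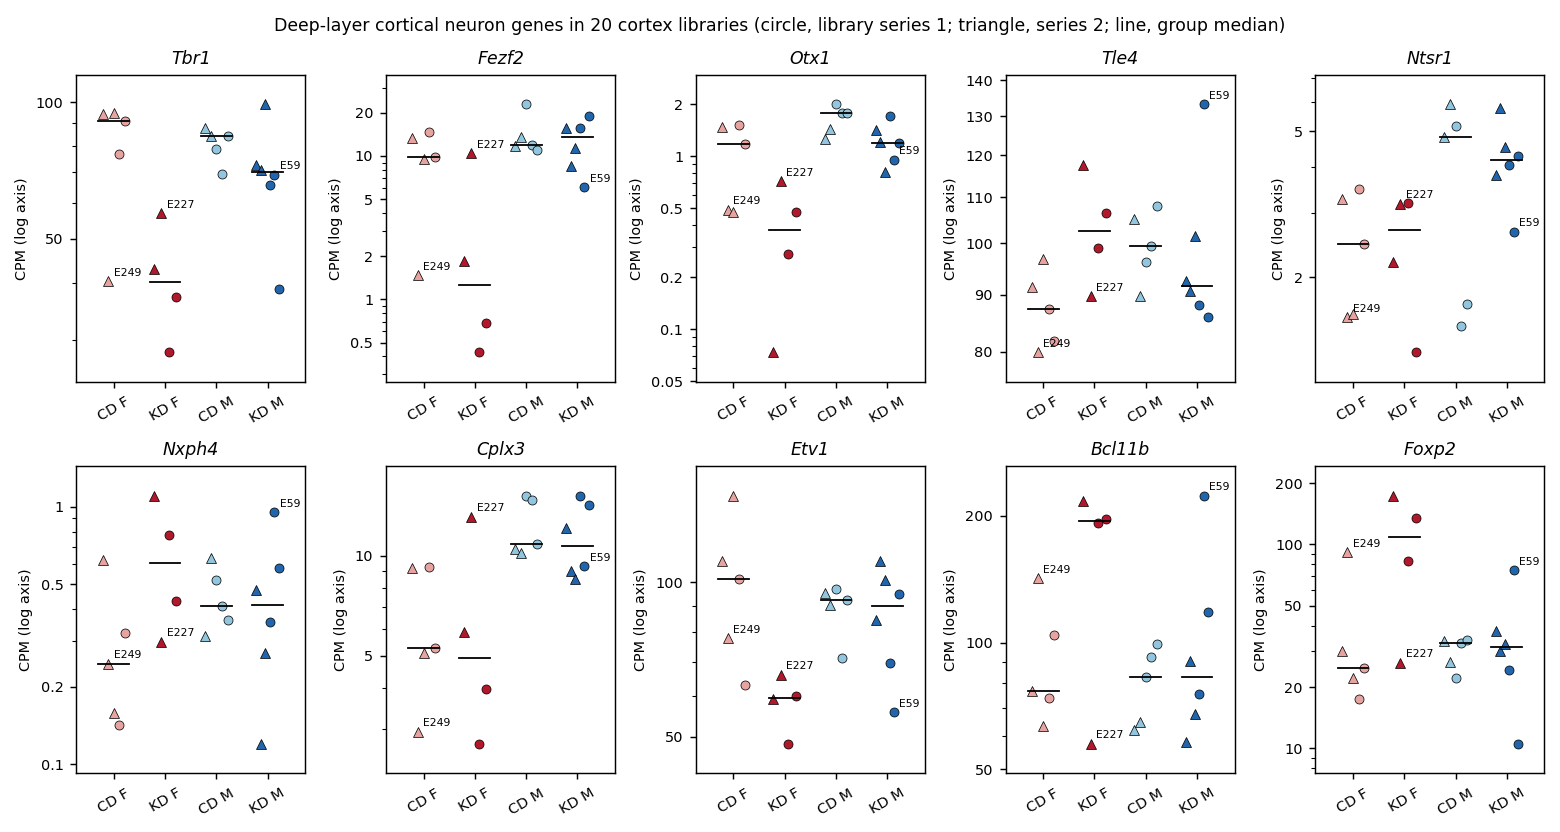
Level of each of the 10 members in CPM (log axis) in every library, by diet and sex, with the line at the group median, circles for library series 1 and triangles for series 2. In Tbr1 and Fezf2 the CD female E249 sits among the KD females, while in Foxp2 the KD female E227 sits among the CD females, and in Bcl11b it sits below them all.

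In females the group means of several members differed between the diets. Tbr1 was at 41.3 ± 12.1 CPM in KD females (SD, n = 4) and 79.5 ± 23.1 CPM in CD females (n = 5), and Fezf2, Otx1 and Etv1 were likewise lower on KD, while Foxp2 and Bcl11b were higher. None of the 10 members passed the test, which required a false discovery rate (FDR) under 0.1 over all 15660 genes and a change of at least 1.5-fold. Of all tested genes, 0.0447% did. At an unadjusted p under 0.05, 4 of 10 members were lower, against 5.5% of all genes, and 1 was higher, against 5.86%. No member separated the diets completely, which 1.7% of genes did with every KD female above every CD female and 0.402% with every KD female below.

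Tbr1, the layer 6 selector, was at 43.0 CPM in KD female E207, 56.9 in E227, 28.1 in E61 and 37.3 in E68. In CD females it was at 94.3 CPM in E228, 40.3 in E249, 94.8 in E265, 76.9 in E62 and 91.1 in E67. The CD library E249 lay inside the KD range, and the other 4 CD libraries lay above every KD library. The fitted log2 fold change was -1.01 ± 0.242 (SE), with an unadjusted p of 0.000520 and an FDR of 0.185 (edgeR quasi-likelihood test). In the exact permutation test over the 126 splits of the 9 female libraries, the two-sided p was 0.0397, where the smallest possible is 0.00794. The permutation p values given here, for 10 members in each sex, are not adjusted.

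Fezf2, the layer 5 selector, had the widest spread. KD females held 1.84 CPM in E207, 10.5 in E227, 0.427 in E61 and 0.689 in E68. CD females held 13.3 CPM in E228, 1.47 in E249, 9.45 in E265, 14.6 in E62 and 9.81 in E67. KD female E227 was above CD females E265 and E67, and CD female E249 was below KD females E207 and E227. Apart from E227 and E249, every KD female was below every CD female. The log2 fold change was -1.71 ± 0.705 with an FDR of 0.357, and the exact permutation p was 0.0952. The SD of log2 CPM was 1.95 in KD females, more than in 99.6% of tested genes in that group, and 0.43 in CD males.

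Otx1 was counted few times, with 1 read in KD female E207, 7 in E61 and 11 in E68, and 6 each in CD females E249 and E265. In CPM it was at 0.0736 in E207, 0.718 in E227, 0.27 in E61 and 0.47 in E68 on KD. On CD it was at 1.47 in E228, 0.49 in E249, 0.48 in E265, 1.52 in E62 and 1.18 in E67. The CD libraries E228, E62 and E67 were above every KD library, and E249 and E265 were not. The log2 fold change was -1.49 ± 0.423, with an unadjusted p of 0.00233 and an FDR of 0.206, and the exact permutation p was 0.0556.

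Etv1, the layer 5 ETS factor, was at 59.1 CPM in E207, 65.97 in E227, 48.5 in E61 and 60.0 in E68 among KD females. Among CD females it was at 110 CPM in E228, 77.7 in E249, 147 in E265, 101 in E62 and 62.9 in E67. Here the groups overlapped only because CD female E67 was below KD female E227. The log2 fold change was -0.79 ± 0.195, with an unadjusted p of 0.000692 and an FDR of 0.190, and the exact permutation p was 0.0317.

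The pair also expressed in striatum went the other way. Foxp2 was at 174 CPM in E207, 26.4 in E227, 82.9 in E61 and 135 in E68 on KD, and at 30.2 in E228, 91.9 in E249, 22.2 in E265, 17.6 in E62 and 24.8 in E67 on CD. The 4 female libraries with the highest Foxp2 were E207, E68, E249 and E61, which are also the 4 female libraries with the highest striatal sum. Bcl11b was at 217 CPM in E207, 57.5 in E227, 193 in E61 and 197 in E68 on KD, and at 76.8 in E228, 142 in E249, 63.3 in E265, 73.8 in E62 and 104 in E67 on CD. KD female E227 was the lowest of all 9 female libraries in Bcl11b, and the other KD females were the highest. The log2 fold change was 1.502 ± 0.546 for Foxp2 (FDR 0.289) and 0.70 ± 0.347 for Bcl11b (FDR 0.468), with exact permutation p of 0.0873 and 0.135.

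The other 4 members gave smaller or less certain differences in females. Tle4, the most abundant, was at 89.7 to 118 CPM on KD and 79.9 to 96.8 on CD, a log2 fold change of 0.18 ± 0.130 (FDR 0.679) with an exact permutation p of 0.0476. Its groups overlapped through E227, which was below CD females E228 and E265. Ntsr1 was at 1.25 to 3.18 CPM on KD and 1.56 to 3.47 on CD, with a log2 fold change of -0.09 ± 0.379. Nxph4 was at 0.299 to 1.10 CPM on KD and 0.143 to 0.622 on CD, with a log2 fold change of 0.996 ± 0.519 (FDR 0.494). Cplx3 was at 5.89 CPM in E207, 13.1 in E227, 2.72 in E61 and 3.96 in E68, and at 2.95 in E249 and 5.08 to 9.23 in the other CD females, with a log2 fold change of -0.06 ± 0.373. The estimates for the layer 6 genes Tbr1, Tle4 and Ntsr1 thus had different signs, as had those for the subplate markers Nxph4 and Cplx3, and the differences between genes were not tested.

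**Figure D2:**
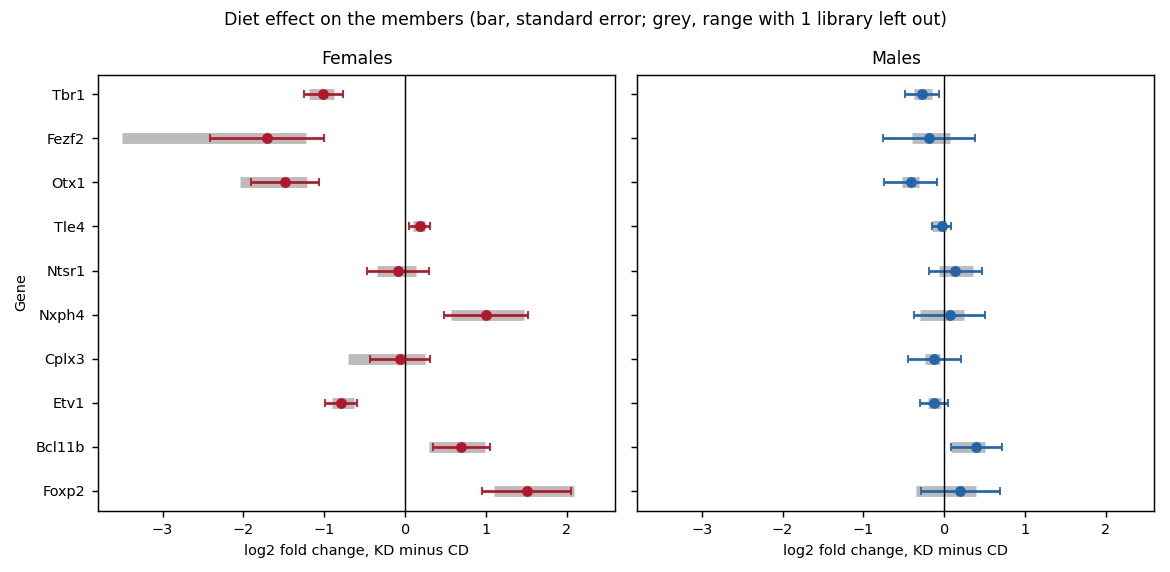
Log2 fold change of each member, KD minus CD, in females and in males, with the standard error as a bar and, in grey, the range of the estimate when each library was left out in turn. The female estimate of Fezf2 ran from -3.50 to -1.23 and that of Tbr1 from -1.19 to -0.88.

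The calls in females turned on 2 libraries. Without the CD female E249, 6 members passed the test, namely Tbr1, Fezf2, Otx1 and Etv1, lower on KD, and Foxp2 and Bcl11b, higher on KD, while 6.66% of all tested genes passed. Without the KD female E227 the same 6 passed, with 5.68% of all genes. In the second case the log2 fold change of Fezf2 was -3.50 (FDR 0.00476), of Tbr1 -1.15 (FDR 0.0201), of Otx1 -2.04 (FDR 0.0126) and of Foxp2 1.88 (FDR 0.0445). Leaving out any other library, including E228, gave 0 members in females. Few genes of any kind passed in those fits, at most 38 of 15504 (without E59), and 4 of 15770 without E228. E249 was the CD female with the most striatal and least excitatory RNA, and E227 the KD female with the least striatal and most excitatory RNA. In the excitatory sum E249 was nearer to KD females E61, E68 and E207 than to the other CD females, and E227 was nearer to those CD females than to the other KD females, and E228 held some Y-linked RNA. Whether labels, tissue content or RNA from other samples account for these 3 libraries was not tested, and every diet value for females given here includes them unless stated.

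**Figure D3:**
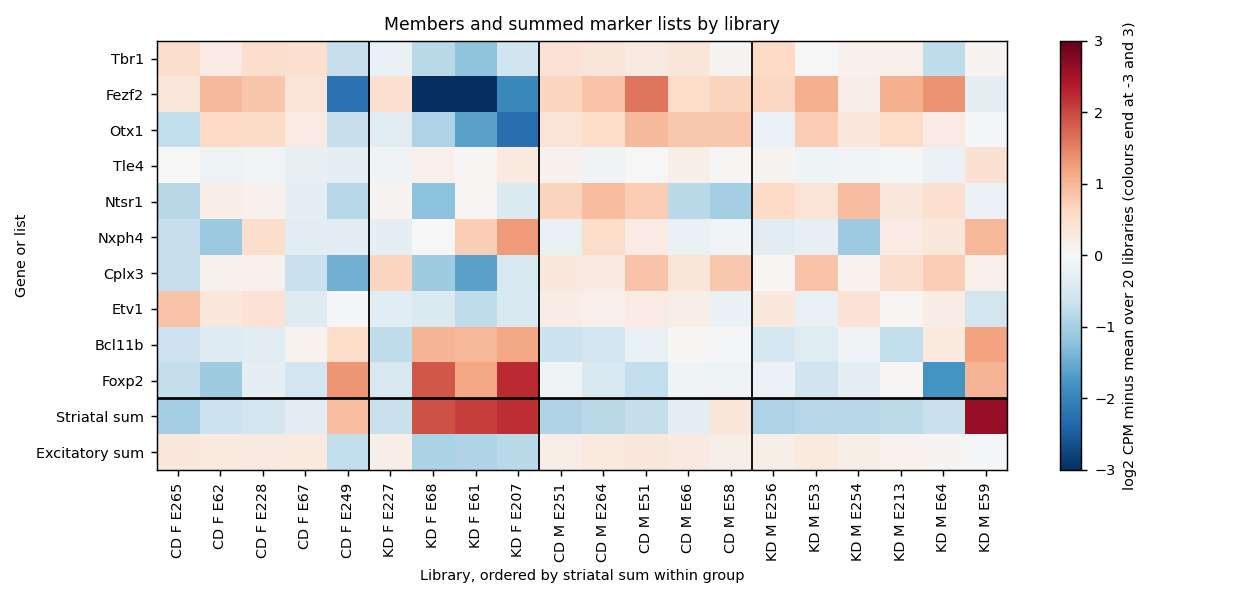
Log2 CPM of each member, and of the summed striatal and cortical excitatory genes, in each library as the difference from the mean over all 20 libraries, with libraries ordered by striatal sum within each group and colours ending at -3 and 3. Fezf2, Otx1 and Tbr1 are low, and Bcl11b and Foxp2 high, in CD female E249 and in KD females E68, E61 and E207. Otx1 is also low in CD female E265, at 0.48 CPM against 0.49 CPM in E249.

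Marker lists of other cell types differed between the same libraries. In females all 20 striatal genes had a positive log2 fold change, with 14 at an unadjusted p under 0.05, none past the test, and a median of 2.01, where the median over all genes was 0.013. Among them Pdyn, which encodes the prodynorphin precursor, had 2.33, the orphan receptor Gpr6 had 3.62, the adenylyl cyclase Adcy5 had 1.63, and Ppp1r1b, which encodes DARPP-32, had 2.12. All 10 cortical excitatory genes, Tbr1 included, had a negative one, with 8 at an unadjusted p under 0.05, none past the test, and a median of -0.93. These included the transcription factors Mef2c at -0.86 and Neurod6 at -1.45. When the striatal sum was added to the model, the female log2 fold change was -0.83 for Tbr1, -0.84 for Fezf2, -0.998 for Otx1, -0.50 for Etv1, 0.23 for Foxp2 and -0.17 for Bcl11b. When the sum of the other 9 excitatory genes was added instead, it was -0.39 for Tbr1, -0.005 for Fezf2, -0.61 for Otx1, -0.54 for Etv1, -0.06 for Foxp2 and -0.30 for Bcl11b. In females no member passed the test in either fit, and 0 of all 15660 genes did. The summed inhibitory neuron genes were at 1649 to 2046 CPM in KD females E61, E68 and E207 and CD female E249, and at 775 to 1307 CPM in the other 16 libraries. General neuron genes summed to 7138 to 7627 CPM in those 4 libraries and to 8189 to 9973 CPM in the other females. In males this sum was 7419 CPM in E64, inside the range of those 4 libraries, and 8317 to 10723 CPM in the others. The inhibitory sum hides a split list. Of the 12 inhibitory genes, 8 had a positive and 4 a negative log2 fold change in females (median 0.29). Among them 3 positive and 2 negative values had an unadjusted p under 0.05, where 5.86% of all genes were higher and 5.5% lower. No inhibitory gene passed the test. In females all 9 thalamic genes tested (median 0.60, 3 at an unadjusted p under 0.05) and all 8 microglia genes (median 0.32, 3 at that level) had a positive log2 fold change, and none passed the test. The part of these lists in the members' differences was not tested.

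**Figure D4:**
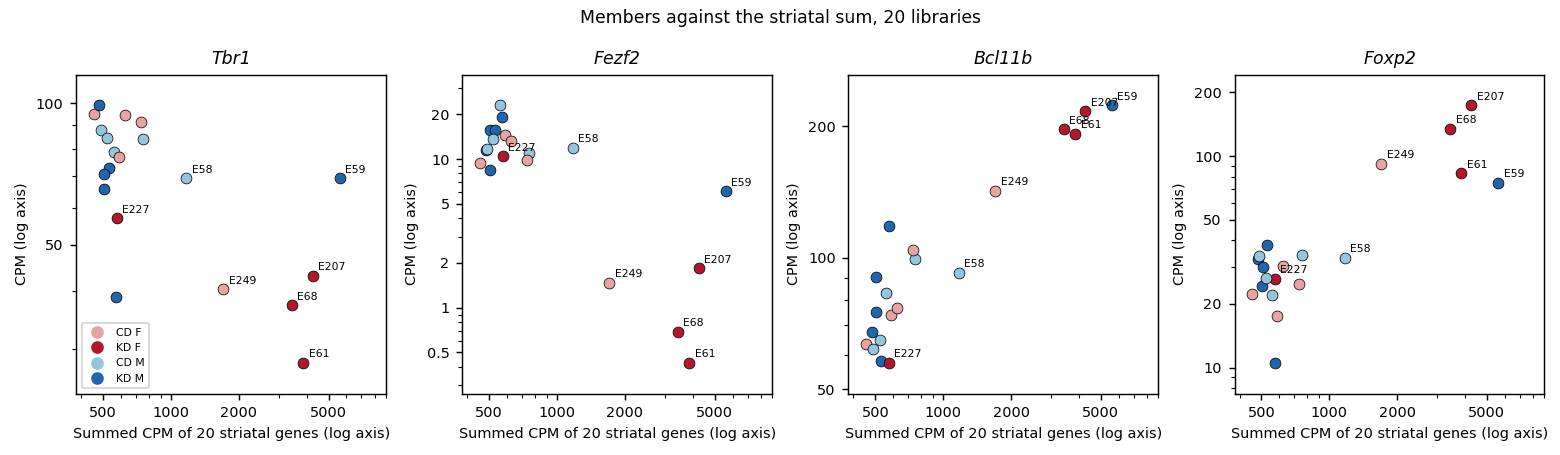
Level of Tbr1, Fezf2, Bcl11b and Foxp2 in CPM (log axis) against the summed CPM of 20 striatal genes (log axis) in 20 libraries, coloured by diet and sex. The 4 libraries at 3437 CPM or more lie apart, with Bcl11b at 193 to 224 CPM, and E249 lies between them and the rest.

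Because those 4 libraries form a separate cluster, the relation of each member to the striatal sum was computed only within the other 16. Each of the 10 members was related to the sum by r and by rho, and again in the subsets of libraries below, and none of these p values is adjusted. Over these 16 libraries Bcl11b had a Pearson r of 0.72 (permutation p 0.00176) and a Spearman rho of 0.62 (permutation p 0.0124). Ntsr1 had r of -0.68 (permutation p 0.00264) and rho of -0.60 (permutation p 0.0152). For Fezf2 r was -0.70 (permutation p 0.0265) but rho was -0.11 (permutation p 0.691), and for Foxp2 r was 0.60 (permutation p 0.0287) but rho 0.24 (permutation p 0.367). Leaving out E58 and E249, the 2 libraries farthest from the median striatal sum, r was 0.59 for Bcl11b (permutation p 0.0254), -0.45 for Ntsr1 (permutation p 0.103), -0.03 for Fezf2 and -0.04 for Foxp2, so that the relations of Fezf2 and Foxp2 rested on those libraries. Without them Bcl11b had a rho of 0.47 (permutation p 0.0941) and Ntsr1 a rho of -0.41 (permutation p 0.145), so neither was under 0.05 by rank. Within library series 1 (7 libraries) r was 0.30 for Bcl11b and -0.90 for Ntsr1. There rho was 0.32 (permutation p 0.497) and -0.89 (permutation p 0.0126). Within series 2 (9 libraries), which holds E249, r was 0.86 for Bcl11b and -0.56 for Ntsr1. By rank these were weaker, with a rho of 0.22 (permutation p 0.581) and -0.35 (permutation p 0.360).

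The diet difference in females was also computed within each library series. In series 1 alone, with KD females E61 and E68 against CD females E62 and E67, the log2 fold change was -1.40 for Tbr1 (FDR 0.0290), -4.48 for Fezf2 (FDR 0.00695) and -1.88 for Otx1 (FDR 0.0568), and these 3 members passed the test with 5.42% of all genes. In series 2 alone, which holds E227 and E249, it was -0.69 for Tbr1, -0.47 for Fezf2 and -1.07 for Otx1, and no member passed. There 0 of the 15458 genes tested passed in females, and 9 of the genes tested were members. Etv1 had -0.63 in series 1 and -0.91 in series 2. Foxp2 had 2.33 and 1.002, and Bcl11b 1.09 and 0.48. Each of these 6 members had the same direction in both series, but both series also enter the pooled estimates by which the 6 stood out. Of the others, Tle4 had 0.24 and 0.14, Ntsr1 -0.47 and 0.25, and Cplx3 -1.15 and 0.64. Nxph4 had a value in series 1 only (1.29). In series 1 the striatal sum was 3858 CPM in E61 and 3437 CPM in E68, against 588 CPM in E62 and 737 CPM in E67. The part of this in the series 1 differences was not tested.

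In males no member passed the test, as no gene of the 15660 did (0%), and no member reached an unadjusted p under 0.05, where 2.37% of genes were higher and 1.19% lower at that level. Tbr1 was at 87.8 CPM in CD male E251, 84.4 in E264, 78.8 in E51, 69.3 in E58 and 84.1 in E66. In the 6 KD males its lowest value was 38.7 CPM, in E64, its median 70.0 and its highest 98.9, and the KD range enclosed the CD range. The log2 fold change was -0.28 ± 0.214. Fezf2 was at 10.9 to 22.9 CPM on CD and at 6.05 (lowest, in E59), 13.6 (median) and 19.1 CPM (highest) on KD, a log2 fold change of -0.19 ± 0.569. Otx1 was at 1.26 to 1.99 CPM on CD and 0.812 to 1.72 CPM on KD with medians of 1.77 and 1.20 CPM. Its log2 fold change was -0.42 ± 0.329, and it was the only member under 0.05 in the exact permutation test over the 462 splits of male libraries (p = 0.0476), in which the smallest possible p is 0.00216. Etv1 was at 71.2 to 97.1 CPM on CD and 55.8 to 110 CPM on KD. No member separated the diets in males, which 0.102% of genes did with every KD male above and 0.115% with every KD male below.

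Single libraries shifted Bcl11b and Foxp2 in males. Bcl11b was at 61.8 to 99.1 CPM in CD males and at 58.1 (lowest), 82.8 (median) and 224 CPM (highest) in KD males, and Foxp2 was at 22.1 to 34.1 CPM and at 10.6, 31.3 and 74.7 CPM. Both highest values were in E59, the male with a striatal sum of 5610 CPM, and E59 was also the highest KD male in Tle4 (133 CPM) and Nxph4 (0.952 CPM) and the lowest in Fezf2, Ntsr1 and Etv1. The log2 fold change of Bcl11b was 0.39 with E59 and 0.08 without it, and that of Foxp2 was 0.20 with E59 and -0.35 without it. The lowest Tbr1 and Foxp2 of the KD males were in E64, the library with the high hippocampal sum, and without it the log2 fold change of Tbr1 was -0.15 and that of Foxp2 0.40. What part the hippocampal genes have in this was not tested. Ntsr1, Nxph4, Cplx3 and Tle4 had log2 fold changes of 0.14, 0.07, -0.12 and -0.03 in males.

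Whether the diet effect differed between the sexes was tested as an interaction. None of the 10 members, and 0% of all genes, passed the test. At an unadjusted p under 0.05, 2 members had a more negative diet effect in females, against 1.05% of genes in that direction, and none a more positive one, against 1.09%. These were Tbr1 (log2 difference -0.73, FDR 0.9999 by edgeR) and Etv1 (-0.67, FDR 0.9999). Fezf2 had -1.51 ± 0.893 and passed only when E227 was left out, at -3.34 (FDR 0.0974), as 0.257% of all genes did. The diet effect averaged over both sexes gave 0 called members, against 0.268% of all genes. At an unadjusted p under 0.05, 4 members were lower on KD, against 6.44% of genes, and 2 were higher, against 7.41%. The smallest FDR values there were those of Tbr1 (log2 fold change -0.64, FDR 0.119), Otx1 (-0.95, FDR 0.130) and Etv1 (-0.46, FDR 0.132).

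Several members were lower in females than in males, averaged over the diets, although none passed the test (0.134% of all genes did). At an unadjusted p under 0.05, 5 of 10 members were lower, against 4.96% of genes, and 2 were higher, against 8.59%. Otx1 was at 0.0736 to 1.52 CPM in the 9 females and 0.812 to 1.99 CPM in the 11 males, a log2 difference of -1.13 ± 0.269 (unadjusted p 0.000486, FDR 0.140 by edgeR). Cplx3, the subplate complexin, was at 2.72 to 13.1 CPM in females and 8.53 to 15.2 CPM in males, a log2 difference of -0.91 ± 0.257 (FDR 0.173). All males were above 6 of the 9 females in Cplx3, and females E227, E228 and E62 were inside the male range. Fezf2 had -1.32 (FDR 0.247), Ntsr1 -0.69 (FDR 0.263) and Tbr1 -0.43 (FDR 0.270), and Foxp2 had 0.89 and Bcl11b 0.50. Without E227, 5 members passed (Fezf2, Otx1, Cplx3, Foxp2 and Bcl11b, with 5.1% of all genes), and Otx1 alone passed without E59 (with 1.32% of all genes), without E62 (0.561%) or without E228 (0.507%). Of the 20 striatal genes all 20 had a positive log2 difference (median 0.89), with 7 at an unadjusted p under 0.05, and all 10 cortical excitatory genes a negative one (median -0.53), with 8 at that level. No gene of either list passed the test.

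Other ways of testing called some of these members. In females the Wald test of DESeq2 called Tbr1, Otx1 and Etv1, with 1.62% of all genes, the likelihood ratio test of edgeR called the same 3, with 1.4%, and a fit with 2 factors of unwanted variation (RUVg) called these and Fezf2, with 1.7%. For the diet effect averaged over both sexes, Tbr1 and Otx1 were called by DESeq2 (with 2.24% of all genes), by the likelihood ratio test (2.36%) and with 1 RUVg factor (1%). Fezf2 was called in addition with 2 RUVg factors (2.25%) and in library series 1 alone (5.55%). Leaving out 1 library gave 4 members in the averaged effect without E249 (Tbr1, Otx1, Foxp2 and Bcl11b, with 5.04% of all genes), the same 4 and Fezf2 without E227 (4.19%), and Tbr1 alone without the KD male E256 (0.456%). For females against males, Otx1 and Cplx3 were called by DESeq2 (1.35%) and the likelihood ratio test (1.83%), and Fezf2 and Cplx3 in series 1 alone (0.476%). Each of these members had the direction given above.

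The 26 other genes used as markers of layer 5, layer 6 or subplate were split. In females 12 had a higher and 14 a lower level on KD, with none past the test, and their median log2 fold change was -0.002. Of the 26, 3 were higher at an unadjusted p under 0.05, against 5.86% of all genes, and 8 were lower, against 5.5%. The smallest p values were those of Zfpm2, a Friend-of-GATA cofactor, at -1.35 ± 0.341 (FDR 0.190), the natriuretic peptide clearance receptor Npr3 at -0.87 (FDR 0.194), the SoxD factor Sox5 at -0.70 (FDR 0.198) and Thsd7b at 0.85 (FDR 0.206). The summed level of the 26 genes ran from 782 CPM in CD female E228 to 1265 CPM in KD male E64, a narrower range in ratio than that of the excitatory sum. In males 16 were higher and 10 lower on KD, with a median of 0.06, and Thsd7b at 0.55 and Zfpm2 at -0.57. There 4 were higher at an unadjusted p under 0.05, against 2.37% of all genes, and 0 were lower, against 1.19%.

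**Figure D5:**
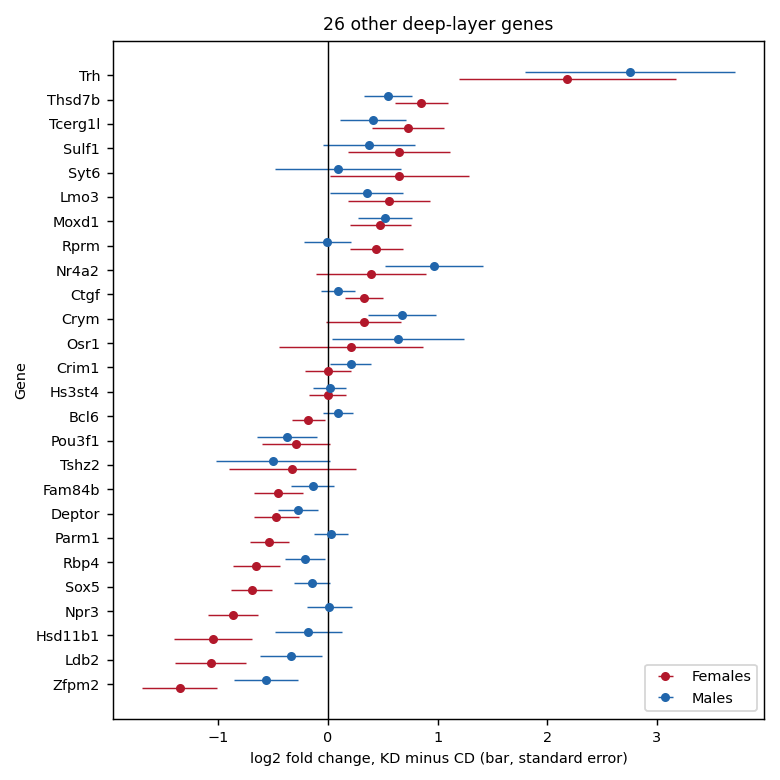
Log2 fold change, KD minus CD, with its standard error for the 26 other deep-layer genes in females and males, ordered by the female value. Female values run from -1.35 for Zfpm2 to 2.18 for Trh, and none passed the test.

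Upper-layer genes were split as well. Of 16 tested in females, 7 were higher and 9 lower on KD, with 1 each at an unadjusted p under 0.05 and a median of -0.11. Over all genes 5.86% were higher and 5.5% lower at that level. Otof, which encodes otoferlin, passed the test at a log2 fold change of 2.01 (FDR 0.0626). Stard8 had -0.67 (FDR 0.190), the Wnt modulator Rspo1 had -1.27 and the POU factor Pou3f2 had -0.53.

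Over all 20 libraries, after subtracting the mean of each library series, each member had genes with a very similar pattern of log2 CPM. This likeness is a description of libraries that include the 4 with a high striatal sum. Tbr1 was most like Vsnl1 (r = 0.96) and Frrs1l (0.95), and Fezf2 most like Alox12b (0.97) and Adcy1 (0.96). Foxp2 was most like Chat (0.96) and Slc35d3 (0.96), and Bcl11b most like Tac1 (0.97) and Akap9 (0.97). Otx1 was most like Tmem178 and Map4k3 (0.92 each) and Cplx3 like Nxph3 (0.94) and Inpp5k (0.93). Vgll3 had an r of 0.83 with Etv1. Tle4 was most like Kcnab1 (0.87) and Foxp1 (0.83), Ntsr1 like Smad3 (0.87) and Bcl9 (0.85), and Nxph4 like Cplx2 (0.89) and Gm2a (0.86). Between members, Fezf2 was most like Cplx3 (0.87) and Otx1 (0.85) and least like Foxp2 (-0.86), and Tle4 and Tbr1, both of layer 6, had an r of 0.003.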

How the data were processed

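Cortex RNA of 20 APOE4 mice was sequenced as stranded total RNA libraries of 50-bp read pairs. STAR alignment to mm10 was done by the authors, who deposited raw counts per gene for each library. The aligner version, annotation and strand setting of the counting are not given in the sources used here. Groups came from the sample labels, and library series from the library numbers. Replicates are separate mice, split over both library series, so p-values measure the spread between libraries, which includes differences in tissue content.

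From the counts, CPM (counts scaled to the library total), log2 CPM with a prior count of 2, and RPKM were computed. All 20 libraries were fitted in R 4.3.3 with edgeR 4.0.16 on 15660 genes kept by filterByExpr, with upper-quartile normalization, the 4 groups, a library series term and robust quasi-likelihood tests. P-values were adjusted over all 15660 genes by Benjamini-Hochberg, and a call needed an FDR under 0.1 and a 1.5-fold change. The study used the same thresholds and RUVg, whose settings are not fully given, so RUVg was an alternative. Single genes were also tested by exact permutation (two-sided, scipy 1.17.1). The fit was tested on simulated counts.

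The members and lists were chosen with earlier results of these data known. All members were named, with at most 4 genes of smallest p in females from each of the other deep-layer, upper-layer, excitatory and striatal lists, the marker genes Slc17a7, Snap25, Drd1 and Ttr, and the 2 genes most like each member. Some genes that this rule names are not reported here. Ddx3y, Trh and other names were chosen after their values were seen. Few counts, at totals of 12207161 to 29109990, limit the precision of Otx1 and Nxph4. Alternatives were TMM, DESeq2 size factors, other filters and thresholds, no series term, RUVg, each sex or series alone, the striatal or excitatory sum as covariate, the likelihood ratio and Wald (DESeq2 1.42.0) tests, and leaving out each library.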

Additional observations from a re-analysis of the deposited data

Results flagged for a closer look

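Of 40 groups of libraries checked (10 members in 4 groups), 4 held 1 library far from the others, where about 2.0 would by chance. In CD females, E249 was far below the others in Tbr1, at 40.3 CPM against 76.9 to 94.8 CPM, a gap of 0.754 of the range of the group. The same library was far below in Fezf2, at 1.47 CPM against 9.45 to 14.6 CPM, a gap of 0.806 of the range. In KD females, E227 was far below the others in Bcl11b, at 57.5 CPM against 193 to 217 CPM, a gap of 0.911 of the range. In CD males, E58 was far below the others in Etv1, at 71.2 CPM against 90.4 to 97.1 CPM, a gap of 0.770 of the range. The gaps are on the log2 CPM scale. E249 and E58 have the highest striatal sums of the CD libraries, at 1704 and 1171 CPM, and E227 has the lowest of the KD females, at 574 CPM.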

How the results depend on the processing

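No paired analysis was possible because the groups share no replicate numbers and each mouse gave 1 library. Across the other fits the members called in females numbered 3 with DESeq2, 3 with the edgeR likelihood ratio test, 4 with 2 RUVg factors and 3 in library series 1 alone. For the averaged diet effect the numbers were 2, 2, 3 and 3, and 2 with 1 RUVg factor, and for females against males 2 with DESeq2, 2 with the likelihood ratio test and 2 in series 1 alone. An FDR of 0.05 with no fold limit, TMM, DESeq2 size factors in edgeR, no filter, no series term, series 2 alone, each sex alone and both covariates gave 0 members, and no fit called a member in males. For the diet effect in females, series 2 alone and either covariate gave 0 calls over all genes tested. With 1 library left out the number of members called was 0 to 6 in females, 0 to 5 averaged over the sexes, 0 to 1 for the interaction, and 0 to 5 for females against males. The cause of these changes was not tested. A floor of 10 counts in every library left 8 members, none of them called.

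Log2 differences changed sign as follows, none of them past the test. For females against males, Nxph4 was 0.086 with 1 RUVg factor and 0.071 with 2, and Ntsr1 in females was 0.064 with 2. In series 1 alone the Cplx3 interaction was -1.03. In series 2 alone, Ntsr1 was 0.247 in females, -0.179 in males and 0.425 in the interaction, Cplx3 was 0.645 in females and Etv1 was 0.095 in males. With the striatal sum as covariate, Tle4 (-0.027), Ntsr1 (0.363), Bcl11b (-0.171) and Cplx3 (0.377) changed sign in females, and Fezf2 (0.027), Foxp2 (-0.188) and Nxph4 (-0.152) in males. Under it Ntsr1 was 0.141 and Bcl11b -0.342 in the interaction, and Bcl11b was -0.042 in females against males. With the excitatory sum as covariate, Ntsr1 (0.439), Foxp2 (-0.063), Bcl11b (-0.299) and Cplx3 (0.830) changed sign in females, and Fezf2 (0.224), Foxp2 (-0.129), Nxph4 (-0.042) and Cplx3 (0.053) in males. Under it Ntsr1 was 0.213 and Bcl11b -0.484 in the interaction, and Foxp2 was -0.303 and Bcl11b -0.190 in females against males.

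With each library left out in turn, estimates on both sides of 0 were found for Ntsr1 (-0.347 to 0.138) and Cplx3 (-0.704 to 0.246) in females, and for Fezf2 (-0.395 to 0.069), Ntsr1 (-0.065 to 0.351), Tle4 (-0.153 to 0.022), Nxph4 (-0.297 to 0.246) and Foxp2 (-0.349 to 0.396) in males. In the interaction they were found for Cplx3 (-0.596 to 0.354), Ntsr1 (-0.482 to 0.0055) and Bcl11b (-0.097 to 0.655), and in females against males for Nxph4 (-0.268 to 0.102). In females Tbr1, Fezf2, Otx1 and Etv1 had a negative and Nxph4 a positive estimate under each fit that gave them one, but that of Fezf2 was -0.005 with the excitatory sum. Otx1 has no value with the floor of 10 counts, nor Nxph4 under 3 of the fits. Few counts limit the precision of Otx1, which had 1 to 11 counts in 5 female libraries. Of these, E61 (7 counts) and E68 (11 counts) are in the deeper library series 1, and E207, E249 and E265 in series 2.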
